A study of Mus musculus with 6 samples.

Results

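The genes described here are 9 laminin and integrin genes of epithelial cells: Lama5, Lama3, Lamb3, Itga2, Itga3, Itga6, Itgb4, Itgb6 and Itgb8. They were chosen by symbol from the 55487 genes of the deposited count table, and each symbol had 1 row. Lama5 and Itgb8 were selected on their higher values in Nsd2 Vil-KO mice in these same libraries, so the difference between genotypes is given for them as a description, without a test. The other 7 genes were chosen because they encode laminin chains or integrin chains of the same epithelial adhesion system, and the question was whether the rise of Lama5 and Itgb8 extended to them. Among the 14650 genes with enough counts to be tested, all 9 were present.

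RNA-seq was performed on intestinal epithelial cells (IECs) from the colon of mice treated with dextran sodium sulphate (DSS), a polymer that injures the colonic epithelium and induces colitis. The Nsd2 f/f group had 3 libraries from mice that carry loxP sites around Nsd2 (labelled WT and NSD2-FF), and the Nsd2 Vil-KO group had 3 (labelled NSD2-FF-VILCRE) from mice that carry the same floxed alleles and in addition Cre under the Villin promoter, which is active in the intestinal epithelium. Both groups thus had the floxed alleles and both received DSS. In the methods of the study, mice were on a C57BL/6J background with littermate controls, DSS was given at 2% in drinking water for 5 days to mice 2 months of age, and IECs were released from the colon with EDTA. The day on which cells were taken for RNA-seq was not stated in the sources used here, and nothing in the labels says whether a library came from 1 mouse or from pooled mice, so p-values measure the spread between these libraries.

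The 6 libraries held between 15439123 and 20350539 counted reads, and a count of 3, used here as the floor of detection, corresponded to between 0.146 and 0.242 CPM, the count scaled to a library of 1000000. CPM values below were scaled with TMM factors, which correct for differences in library composition. Nsd2, which encodes a histone H3 lysine 36 methyltransferase, was at 47.9, 51.2 and 24.6 CPM in Nsd2 f/f libraries and at 24.2, 10.4 and 20.8 CPM in Nsd2 Vil-KO libraries, a difference of −1.16 (SE 0.39) on the log2 scale that was called (a fold change above 1.2 with an unadjusted p below 0.05 in edgeR), with an adjusted p of 0.992 in edgeR and an exact permutation p of 0.1, the smallest that 3 against 3 libraries can give. Each Nsd2 Vil-KO library was thus below each Nsd2 f/f library, although Nsd2 f/f replicate 3 lay only slightly above the highest Nsd2 Vil-KO library, and which exons the loxP sites flank is not given in the sources used here. Markers of the epithelium, led by Krt8 and Krt19, summed to between 11835 and 18207 CPM in Nsd2 f/f libraries and between 13520 and 15677 CPM in Nsd2 Vil-KO libraries, so the markers of the labelled cell type were abundant in every library.

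Nsd2 f/f replicate 3 and Nsd2 Vil-KO replicate 2 stood apart from the other 4 libraries. Their mean Spearman correlation with those 4 was 0.940 and 0.927, whereas each of the 4 correlated at between 0.979 and 0.983 with the remaining 3. They held 4296 and 3684 counts of Xist, the RNA that coats the inactive X chromosome, and the other 4 libraries held at most 5. Of the counts in Nsd2 f/f replicate 3, 19.6% came from mitochondrial genes, against 5.51% to 9.13% elsewhere. Values without them are given below where they moved a result.

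Laminins are trimers of an α, a β and a γ chain that polymerise into the basement membrane on which epithelial cells rest. In the gut, epithelial cells secrete a trimer that holds the α3 and β3 chains (Lama3, Lamb3) and anchors hemidesmosomes, and α5 trimers, in which α5 (Lama5) is joined to β1 or β2 and to γ1 (Lamb1, Lamb2, Lamc1) and which line the basement membrane along the crypt axis. Integrins are pairs of an α and a β chain that bind these ligands: α6β4 is the hemidesmosome receptor, α3β1 and α6β1 bind laminins, α2β1 binds collagens and laminins, and αvβ6 and αvβ8 bind latent TGF-β and release or expose the active cytokine.

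Lama5, the α chain of the α5 trimers, was at 16.4, 15.01 and 17.4 CPM in Nsd2 f/f libraries, from 332, 254 and 215 counts, and at 47.5, 344.3 and 30.4 CPM in Nsd2 Vil-KO libraries, from 974, 6206 and 596 counts. The 3 Nsd2 f/f values lay close together, and each Nsd2 Vil-KO value lay above all of them, as for 5.21% of all tested genes, the lowest of these being 1.75 times the highest Nsd2 f/f value. Nsd2 Vil-KO replicate 2 was 8.84 times the mean of Nsd2 Vil-KO replicates 1 and 3, while that mean was itself 2.39 times the mean of the Nsd2 f/f libraries. The fitted log2 fold change was 3.11 (SE 0.90) with all 6 libraries and 1.26 (SE 0.23) without Nsd2 Vil-KO replicate 2. Nsd2 Vil-KO replicate 2 thus set most of the fitted size, and a smaller difference was seen in the other 2 Nsd2 Vil-KO libraries.

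Lama5 lies on the minus strand of mouse chromosome 2 (GRCm38, chr2:180176373-180225859) and none of its exons overlaps an exon of another gene. The protein-coding genes around it did not show the same value in Nsd2 Vil-KO replicate 2. Of 12 protein-coding genes within 200000 bases on either side, 11 were tested, and their ratio of Nsd2 Vil-KO replicate 2 to the mean of the other 5 libraries was between 0.462 and 1.43, against 13.6 for Lama5. Adrm1, the nearest gene, was at 93.0, 103.8 and 94.9 CPM in Nsd2 f/f libraries and at 95.7, 143.8 and 116.5 CPM in Nsd2 Vil-KO libraries.

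The windows before the transcription starts are shown for the 2 genes whose values did not overlap between genotypes, Lama5 and Itga3, and for Lamb3, a partner whose values did. They come from RefSeq on GRCm38.p6, in which 6 of the 9 genes had a window and Itga3, Lamb3 and Itgb6 had 2 each. For Lamb3 the window farther upstream is printed. For Itga3 the printed window was picked as the one with more GC boxes, and it is also the one farther upstream. The windows are given 5′ to 3′ on the gene's own strand, without bases that lie in annotated exons. Capitals mark the GC box GGGCGG, the core of the sites bound by Sp factors, read on both strands (GGGCGG or CCGCCC), a motif searched after the values were seen.
Lama5, chr2:180225860-180226109, minus strand: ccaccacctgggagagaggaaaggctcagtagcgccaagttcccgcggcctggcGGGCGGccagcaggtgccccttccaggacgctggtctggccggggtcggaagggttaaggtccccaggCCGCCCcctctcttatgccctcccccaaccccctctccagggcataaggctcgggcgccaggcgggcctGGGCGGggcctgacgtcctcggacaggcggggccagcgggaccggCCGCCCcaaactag
Itga3, chr11:95076802-95076964, minus strand: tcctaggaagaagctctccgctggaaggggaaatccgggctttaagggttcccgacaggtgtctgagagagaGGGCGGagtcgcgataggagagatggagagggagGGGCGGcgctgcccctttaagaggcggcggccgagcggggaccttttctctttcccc
Lamb3, chr1:193301744-193301992, plus strand: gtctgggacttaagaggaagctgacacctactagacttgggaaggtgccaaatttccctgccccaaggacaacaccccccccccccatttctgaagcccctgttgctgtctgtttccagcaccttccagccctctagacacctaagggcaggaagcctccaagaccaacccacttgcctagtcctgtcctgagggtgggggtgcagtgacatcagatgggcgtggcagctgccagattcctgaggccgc

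The 250 bases before the start of Lama5 held 4 GC boxes and 19 CpG dinucleotides, and the full window of Itga3 held 3 and 22, of which the printed stretch holds 2 and 12. The window of Lamb3 held 0 and 2, and those of Itga2 and Itgb8 held no GC box and 12 CpG each. The other window of Itga3 held 1 GC box and 5 CpG and that of Lamb3 held 0 and 3, while the windows of Itgb6 held no GC box and 11 and 3 CpG. Of all 32851 windows of this length, 32.7% held at least 1 GC box, 4.09% held at least 4, and the median number of CpG was 6. The window of Itgb8 lies inside an annotated exon and is not shown. A match describes the letters of these windows and not a bound site.

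Itgb8, the β chain that pairs with αv to bind latent TGF-β, was a gene of low level. Its counts were 20, 4 and 8 in Nsd2 f/f libraries and 39, 227 and 5 in Nsd2 Vil-KO libraries, equal to 0.991, 0.236 and 0.646 CPM and to 1.901, 12.6 and 0.255 CPM. The groups overlapped: Nsd2 Vil-KO replicate 3 lay below 2 of the 3 Nsd2 f/f libraries, replicate 1 was somewhat above all 3, and only replicate 2 was far above. The fitted log2 fold change was 2.93 (SE 1.29) with all libraries and 0.76 (SE 0.92) without Nsd2 Vil-KO replicate 2. Itgb8 therefore differed from Lama5, whose values did not overlap between genotypes, in that its higher mean in Nsd2 Vil-KO mice was carried by 1 library. Itgb8 lies on the minus strand at chr12:119158022-119238802, and Macc1, the 1 tested protein-coding neighbour within the same distance, was in that library 1.72 times its mean of the other 5, against 15.6 for Itgb8.

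**Figure D1:**
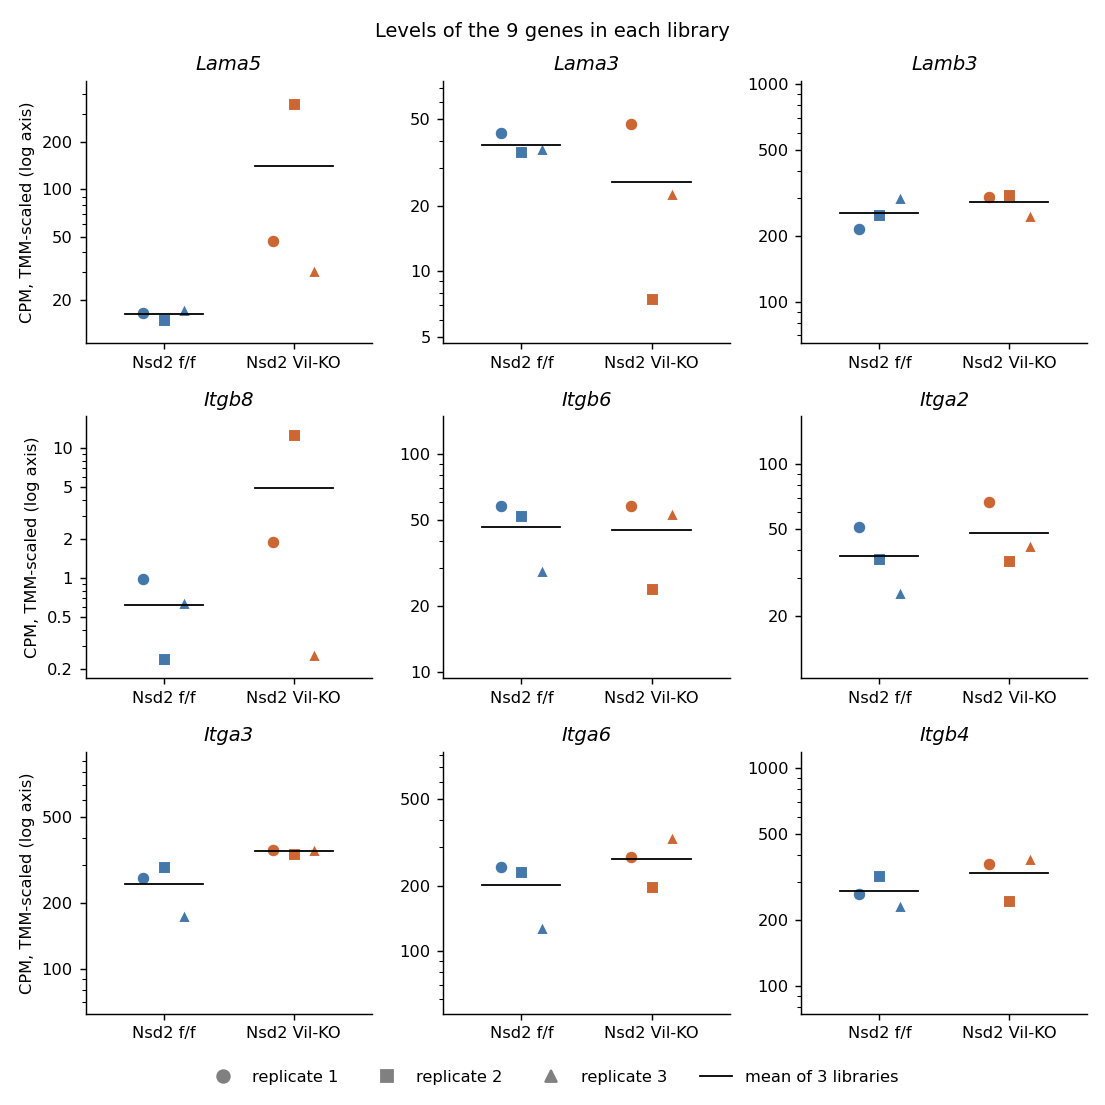
TMM-scaled CPM (log axis, each panel on its own scale) of the 9 genes in 3 Nsd2 f/f libraries (blue) and 3 Nsd2 Vil-KO libraries (orange), with the marker shape giving the replicate number and the line the mean of 3 libraries. In the Lama5 panel all Nsd2 Vil-KO points lie above the Nsd2 f/f points, in the Itgb8 panel only replicate 2 stands clear, and in the Itga3 panel the groups do not overlap but are close.

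Of the 7 partners, 0 were called different between genotypes, that is at an unadjusted p below 0.05 and a fold change above 1.2 in edgeR's quasi-likelihood test, and 0 had an unadjusted p below 0.05. By the same criterion 3.29% of all tested genes were called and 1.65% were called higher in Nsd2 Vil-KO mice, while 0% had an adjusted p below 0.05, where the smallest adjusted p of any gene was 0.992. At an adjusted p below 0.05, DESeq2 called 4 of all genes and limma-voom 0, while 482 had an unadjusted p below 0.05 in edgeR. DESeq2 called 0 of the 7 partners, and limma-voom with quality weights called 2 (Itga3 and Itgb4), a method under which 9.70% of all genes were called. The partners' log2 fold changes were between −0.57 and 0.50 with a median of 0.28, beside a median of 0.00 over all tested genes, and 5 of the 7 were positive. Without Nsd2 Vil-KO replicate 2 this median was 0.46 with 6 of 7 positive, and leaving out Nsd2 f/f replicate 3 gave 0.17 with 5 of 7 positive. The fitted fold change of no partner exceeded 1.42, against 8.64 for Lama5 and 7.60 for Itgb8, which were selected for their rise. Without Nsd2 Vil-KO replicate 2 the log2 fold changes of Lama5 and Itgb8 were 1.26 and 0.76, and the partners reached at most 0.59 (Itga6).

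Lama3, the α chain that joins Lamb3 and the epithelial alternative to Lama5, was at 43.1, 35.5 and 36.4 CPM in Nsd2 f/f libraries and at 47.4, 7.43 and 22.8 CPM in Nsd2 Vil-KO libraries. Nsd2 Vil-KO replicate 1 was the highest of all 6 and replicate 2 the lowest, so the groups overlapped. The log2 fold change was −0.57 (SE 0.57, exact permutation p = 0.4, edgeR adjusted p = 0.992), and −0.13 (SE 0.32) without Nsd2 Vil-KO replicate 2. Without Nsd2 Vil-KO replicate 1 it was −1.34 and Lama3 was called lower.

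Lamb3, the β chain that joins α3, was at 215.5, 250.01 and 301.2 CPM in Nsd2 f/f libraries and at 303.2, 310.9 and 248.2 CPM in Nsd2 Vil-KO libraries. The ranges overlapped, and the log2 fold change of 0.17 (SE 0.21, exact permutation p = 0.4, edgeR adjusted p = 0.992) was smaller than its error, and it was 0.31 when Nsd2 f/f replicate 3 was left out and was 0.11 without Nsd2 Vil-KO replicate 2. Lamb3 lies on the plus strand at chr1:193207699-193343878. Its printed window, taken from a RefSeq start, lies inside this span and was the one without GC boxes among the 3 printed. Nsd2 Vil-KO replicate 2, the library with the high Lama5 value, had a Lamb3 value only 1.13 times the mean of the other 2 Nsd2 Vil-KO libraries.

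Itga3, which pairs with β1 as a receptor for α3 and α5 laminins, was at 262.7, 294.7 and 175.5 CPM in Nsd2 f/f libraries and at 352.1, 336.5 and 351.2 CPM in Nsd2 Vil-KO libraries. It was the 1 partner in which each Nsd2 Vil-KO library was above each Nsd2 f/f library, the pattern of 5.21% of all tested genes. The margin was small, the lowest Nsd2 Vil-KO value being 1.14 times the highest Nsd2 f/f value. The log2 fold change was 0.50 (SE 0.24, exact permutation p = 0.1, edgeR adjusted p = 0.992), 0.53 (SE 0.24) without Nsd2 Vil-KO replicate 2 and 0.32 (SE 0.19) without Nsd2 f/f replicate 3. Itga3 lies on the minus strand at chr11:95044474-95076801, and its windows held 22 and 5 CpG.

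Itga6, which pairs with β4 in the hemidesmosome and with β1 elsewhere, was at 243.8, 230.2 and 128.0 CPM in Nsd2 f/f libraries and at 269.8, 196.6 and 332.5 CPM in Nsd2 Vil-KO libraries. Itgb4, its hemidesmosome partner, was at 263.6, 321.2 and 231.7 CPM and at 364.3, 246.6 and 382.3 CPM in the same order. For both genes Nsd2 Vil-KO replicates 1 and 3 were above all Nsd2 f/f libraries and replicate 2 lay within their range. The log2 fold changes were 0.41 (SE 0.31, exact permutation p = 0.4) for Itga6 and 0.28 (SE 0.25, exact permutation p = 0.3) for Itgb4, both with an edgeR adjusted p of 0.992. Leaving out Nsd2 f/f replicate 3 gave 0.17 and 0.18, and without Nsd2 Vil-KO replicate 2 they were 0.59 and 0.46. Itga6 lies at chr2:71745616-71858416 and Itgb4 at chr11:115974709-116008412, both on the plus strand, and 7.66% of the exon length of Itgb4 overlaps B230344G16Rik on the opposite strand, whose reads could not be separated if counting ignored strand.

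Itga2, the α chain that joins β1 to bind collagens, was at 51.2, 36.6 and 25.6 CPM in Nsd2 f/f libraries and at 66.6, 35.9 and 42.0 CPM in Nsd2 Vil-KO libraries, with overlapping groups and a log2 fold change of 0.35 (SE 0.33, exact permutation p = 0.5, edgeR adjusted p = 0.992). Leaving out Nsd2 f/f replicate 3 gave 0.14 for Itga2, and leaving out Nsd2 Vil-KO replicate 2 gave 0.52. Itga2 lies on the minus strand at chr13:114833081-114932100. Itgb6, the β chain of the epithelial TGF-β activator αvβ6 and in this respect the nearest relative of Itgb8, was at 57.8, 51.9 and 29.1 CPM in Nsd2 f/f libraries and at 57.7, 24.0 and 53.1 CPM in Nsd2 Vil-KO libraries. Its log2 fold change was −0.04 (SE 0.39, exact permutation p = 0.8, edgeR adjusted p = 0.999), and 0.26 (SE 0.30) without Nsd2 Vil-KO replicate 2 and −0.29 without Nsd2 f/f replicate 3. In Nsd2 Vil-KO replicate 2, Itgb6 was 0.433 times its mean of the other 2 Nsd2 Vil-KO libraries, whereas Itgb8 was 11.7 times its own mean of these. Itgb6 lies on the minus strand at chr2:60598292-60722643.

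**Figure D2:**
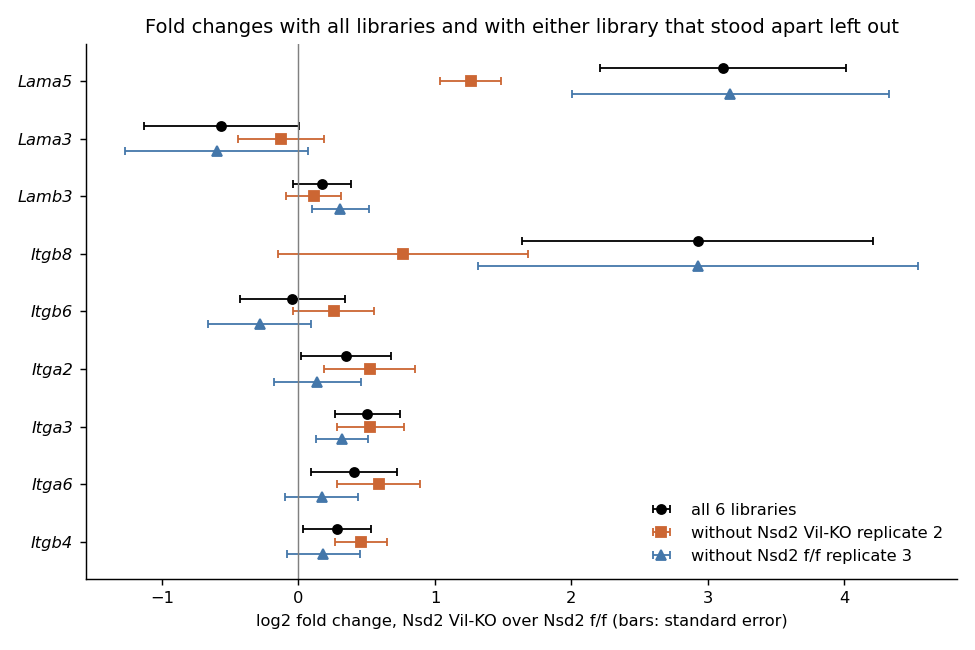
Fitted log2 fold changes (Nsd2 Vil-KO over Nsd2 f/f, horizontal axis) of the 9 genes with standard errors as bars, from all 6 libraries (black), without Nsd2 Vil-KO replicate 2 (orange) and without Nsd2 f/f replicate 3 (blue). Lama5 falls from 3.11 to 1.26 and Itgb8 from 2.93 to 0.76 without Nsd2 Vil-KO replicate 2, whereas the 5 integrin partners shift upward.

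In the 5 integrin partners the libraries that stood apart were the low libraries of their own groups. Nsd2 f/f replicate 3 was the lowest Nsd2 f/f library and Nsd2 Vil-KO replicate 2 the lowest Nsd2 Vil-KO library for 5 of the 5, a pattern that 25.6% of all tested genes had, and Lamb3 was instead the highest of its group in both libraries. In the 4 libraries left without both, Itga3, Itga6 and Itgb4 were called higher in Nsd2 Vil-KO mice (log2 fold changes of 0.35, 0.35 and 0.36), where 10.95% of all genes were called. Both libraries were also low for markers of crypt base and cycling cells, led by Mki67 and Top2a, which summed to 205.0 and 269.2 CPM in Nsd2 f/f replicate 3 and Nsd2 Vil-KO replicate 2 and to between 663.5 and 864.6 CPM in the other 4, and the part of this in the integrin values was not tested. In bulk RNA, fewer cells of a type and less RNA per cell cannot be told apart.

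Correlations over the 6 libraries describe how the 9 genes varied. On log2(CPM + 1), Pearson's r between Lama5 and Itgb8 was 0.94, a value that their selection for high levels in the same Nsd2 Vil-KO libraries favours, between Lama5 and Lama3 −0.86 and between Lama5 and Itgb6 −0.60, while Itga6 and Itgb4, which form 1 receptor, had r = 0.86 and Itga3 and Itga6 had r = 0.84. These are descriptions over 6 libraries of 2 genotypes, in which Nsd2 Vil-KO replicate 2 lies at an end of the range for Lama5, Itgb8, Lama3 and Itgb6. The 5 genes most like Lama5, among those with a mean of at least 1 CPM, were Oga, Noxo1, Aph1a, Ttyh2 and Pou6f1, with r between 0.993 and 0.998. All 5 were at their highest in Nsd2 Vil-KO replicate 2 and had no overlap between genotypes, which follows from their choice for likeness to Lama5. Oga ran between 90.8 and 115.3 CPM in 5 libraries and was at 175.6 CPM in Nsd2 Vil-KO replicate 2. The 5 most like Itgb8 were Gpr137b-ps, N4bp2l1, Alad, Tnfsf13os and Por, with r between 0.990 and 0.994, and Por, the reductase that supplies electrons to cytochromes P450, was between 91.4 and 131.5 CPM in 5 libraries and at 275.4 CPM in Nsd2 Vil-KO replicate 2.

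Levels of different chains were compared as CPM per kilobase of exon, with the union of exons in GENCODE vM21 as length. In the Nsd2 f/f libraries Lamb3 was at 38.7 ± 6.52 CPM per kilobase (mean ± SD, n = 3), Lama3 at 3.57 ± 0.387 and Lama5 at 1.43 ± 0.104. Lamb3 was between 8.13 and 13.4 times Lama3 per kilobase in these libraries. The order Lamb3, Lama3, Lama5 was kept in each Nsd2 f/f library with no overlap between neighbours. In the Nsd2 Vil-KO libraries Lama5 was at 4.17, 30.2 and 2.67 CPM per kilobase beside Lama3 at 4.41, 0.692 and 2.12.

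The balance of the 2 epithelial α chains followed from these values. Lama5 made up 26.5%, 28.5% and 31.0% of Lama5 plus Lama3 per kilobase in Nsd2 f/f libraries and 48.6%, 97.8% and 55.8% in Nsd2 Vil-KO libraries. Lama5 had been selected for its rise, so the higher share is a description and not a separate result. The share was above the Nsd2 f/f range in each Nsd2 Vil-KO library.

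Lamb1, Lamb2 and Lamc1, the β and γ chains that complete the α5 trimers, were not called. Lamb1 was at 2.92, 2.19 and 0.808 CPM in Nsd2 f/f libraries and at 2.05, 0.721 and 0.511 CPM in Nsd2 Vil-KO libraries, with a log2 fold change of −0.87 (SE 0.67, exact permutation p = 0.2). Lamb2 (log2 fold change 0.07, SE 0.37, exact permutation p = 0.8) and Lamc1 (−0.09, SE 0.64, exact permutation p = 1) overlapped between genotypes as well, and were at −0.14 (Lamb2, Nsd2 f/f replicate 3 left out) and −0.68 (Lamc1, Nsd2 Vil-KO replicate 2 left out). Lamc1 was at 4.39, 7.21 and 1.28 CPM in Nsd2 Vil-KO libraries against 6.84, 3.96 and 2.67 CPM in Nsd2 f/f libraries. Per kilobase, Lama5 stood at between 1.75 and 4.73 times Lamc1 in Nsd2 f/f libraries and at 7.86, 34.7 and 17.3 times Lamc1 in Nsd2 Vil-KO libraries. Its ratio to Lamb1 plus Lamb2 overlapped between genotypes, at 0.601, 0.866 and 1.43 in Nsd2 f/f libraries and at 2.26, 25.1 and 1.39 in Nsd2 Vil-KO libraries. As Lama5 had been selected for its rise, these ratios are descriptions, and the 17.3 in Nsd2 Vil-KO replicate 3 rests on 25 counts of Lamc1. Lamb1, Lamb2 and Lamc1 had edgeR adjusted p-values of at least 0.992.

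**Figure D3:**
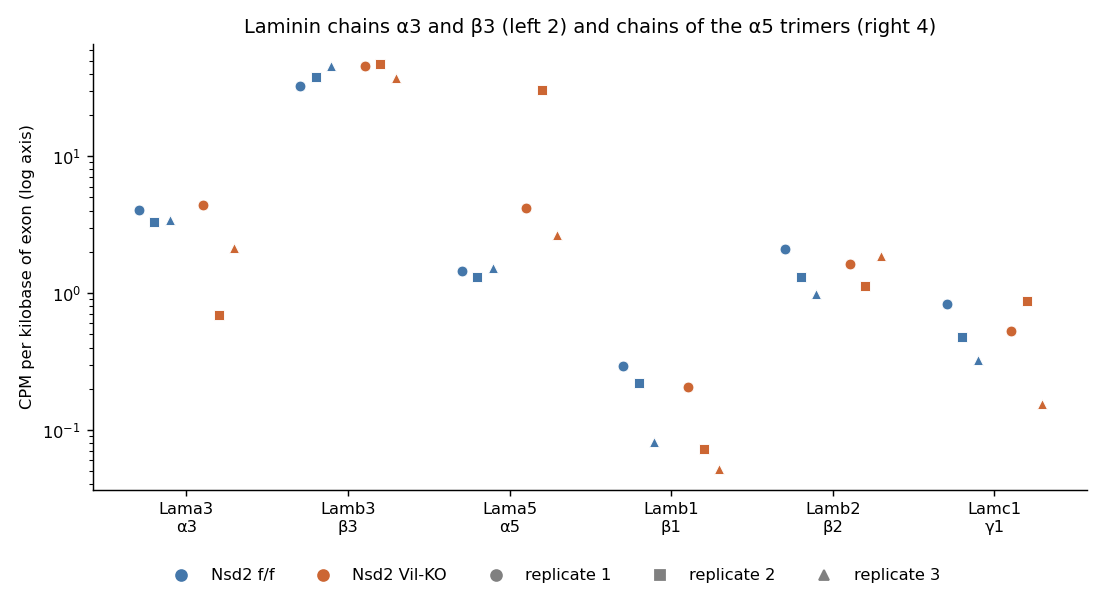
CPM per kilobase of exon (log axis) of Lama3 and Lamb3 and of the chains of the α5 trimers (Lama5, Lamb1, Lamb2, Lamc1) in each Nsd2 f/f (blue) and Nsd2 Vil-KO (orange) library, with marker shapes for replicates. Lama5 in Nsd2 Vil-KO replicate 2, at 30.2, lies above Lama3 and below Lamb3, while Lamb1, Lamb2 and Lamc1 stay at or below 2.11 in every library.

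Among the integrins, Itgb1, the common β chain that serves Itga2, Itga3 and Itga6, was at 225.9, 200.1 and 133.6 CPM in Nsd2 f/f libraries and at 243.2, 332.6 and 238.5 CPM in Nsd2 Vil-KO libraries. Each Nsd2 Vil-KO library was above each Nsd2 f/f library, the pattern of 5.21% of all tested genes. The difference of 0.54 on the log2 scale (SE 0.26, exact permutation p = 0.1, edgeR adjusted p = 0.992) was not called, and it was 0.35 without Nsd2 f/f replicate 3. Itgav, the α chain that both Itgb6 and Itgb8 need, was at 36.8, 24.2 and 14.3 CPM and at 52.7, 35.5 and 30.4 CPM, with overlapping groups and a log2 fold change of 0.65 (SE 0.37, exact permutation p = 0.3, edgeR adjusted p = 0.992), which was 0.38 without Nsd2 f/f replicate 3. Of these 2 chains, Itgb1 was highest in Nsd2 Vil-KO replicate 2 and Itgav in Nsd2 Vil-KO replicate 1. Itgb5, another αv receptor chain, showed no overlap between genotypes either. It was at 42.8, 35.7 and 42.5 CPM in Nsd2 f/f libraries and at 55.2, 52.5 and 45.2 CPM in Nsd2 Vil-KO libraries. Its log2 fold change of 0.34 (SE 0.17, exact permutation p = 0.1, edgeR adjusted p = 0.992) was not called.

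Per kilobase, Itgb8 was far below its relative Itgb6. Itgb8 was at 0.0896, 0.0214 and 0.0584 CPM per kilobase in Nsd2 f/f libraries, beside Itgb6 at 8.13, 7.30 and 4.09. In the Nsd2 Vil-KO libraries Itgb8 was at 0.172, 1.14 and 0.0231 beside Itgb6 at 8.11, 3.37 and 7.46, so that Itgb6 was 47.2, 2.96 and 323.2 times Itgb8. The 323.2 in Nsd2 Vil-KO replicate 3 rests on 5 counts of Itgb8, near the floor of 3. Even in Nsd2 Vil-KO replicate 2, Itgb8 stayed below Itgb6. The receptor chains Itga3, at 42.8 ± 10.8, Itgb4, at 38.8 ± 6.46, and Itgb1, at 45.7 ± 11.7 CPM per kilobase in Nsd2 f/f libraries (mean ± SD, n = 3), lay within overlapping ranges. Itga6, at 22.2 ± 7.01, was below them on this scale, but with the longest transcript as length it was at 46.6 ± 14.7 and overlapped Itgb4, at 43.8 ± 7.30, so its place in the order rested on the exon length used. Itga2, at 5.30 ± 1.80, was well below these 4 with either length.

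**Figure D4:**
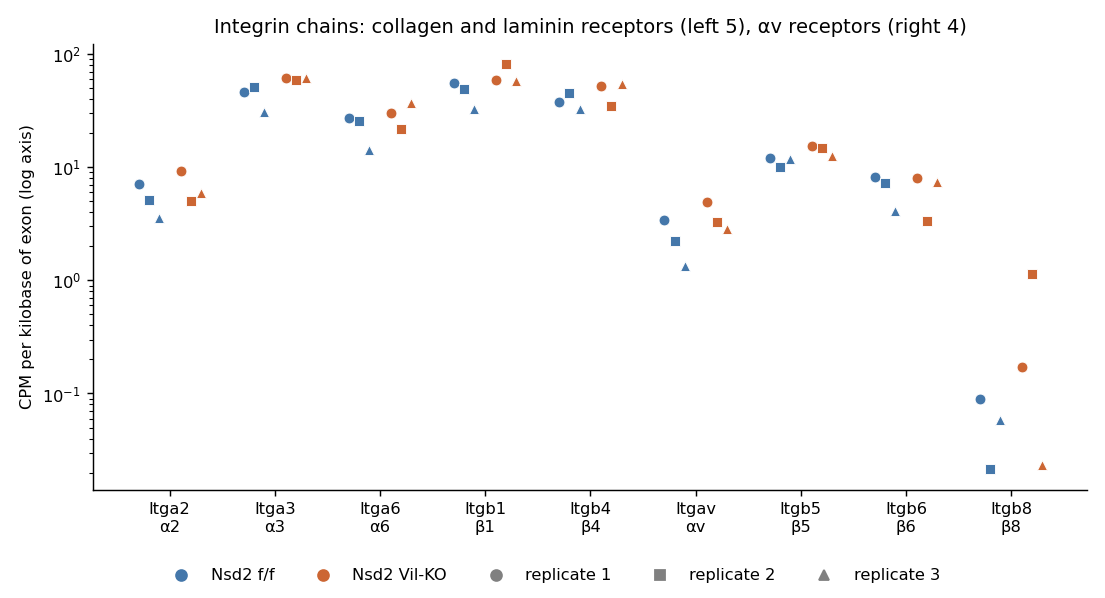
CPM per kilobase of exon (log axis) of the collagen and laminin receptor chains (Itga2, Itga3, Itga6, Itgb1, Itgb4) and of the αv receptor chains (Itgav, Itgb5, Itgb6, Itgb8) in each Nsd2 f/f (blue) and Nsd2 Vil-KO (orange) library. Itgb8 is the lowest chain in every library and spreads the most, from 0.0214 to 1.14, while Itgb6 runs from 3.37 to 8.13.

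The wider families were examined in lists that held the remaining laminin and integrin genes. Of 8 other laminin chains, 5 were tested and 0 were called, with a median of −0.09 on the log2 scale, and of 20 other integrins, 17 were tested and 0 were called, with a median of −0.26 and 6 positive. Without Nsd2 Vil-KO replicate 2 these medians were 0.16 and 0.02, and leaving out Nsd2 f/f replicate 3 gave −0.34 and −0.45. In the 4 libraries left without both they were −0.27 and −0.29. Among these fits the sign thus turned only where Nsd2 Vil-KO replicate 2 alone was left out. No gene of these 22 had an unadjusted p below 0.05 in edgeR, and DESeq2 called 0, beside 633 of all 14650 tested genes. With limma-voom 4 were called (Itgb5 higher, Lamb1, Itga9 and Itgax lower), where 9.70% of all genes were called. The lowest value was that of Itgb2, the common leukocyte β chain, at 26.4, 6.91 and 0.889 CPM in Nsd2 f/f libraries and at 8.34, 2.77 and 2.96 CPM in Nsd2 Vil-KO libraries (log2 fold change −1.29, SE 1.00, exact permutation p = 0.8). Markers of leukocytes, led by Lyz2 and Ptprc, summed to 175.1, 54.1 and 14.1 CPM in Nsd2 f/f libraries and to 75.5, 18.5 and 28.1 CPM in Nsd2 Vil-KO libraries, so Itgb2 was highest in the library with most leukocyte marker RNA, and the part of these cells in its value was not tested.

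The adhesion machinery around the members was given by lists of the hemidesmosome, the basement membrane, the focal adhesion and TGF-β activation. Of 63 listed genes, 47 were tested and 2 were called, beside 3.29% of all tested genes, both from the list for TGF-β activation, and the median log2 fold change was 0.11, or 0.07 without Nsd2 Vil-KO replicate 2. Tgfbr1, the type I TGF-β receptor, was called lower, at 20.7, 21.7 and 18.9 CPM in Nsd2 f/f libraries and at 9.02, 13.5 and 12.0 CPM in Nsd2 Vil-KO libraries (log2 fold change −0.83, SE 0.23, exact permutation p = 0.1, edgeR adjusted p = 0.992). Smad3, which carries the receptor's signal to the nucleus, was called higher, at 57.6, 59.0 and 53.2 CPM and at 80.6, 86.7 and 71.01 CPM (log2 fold change 0.49, SE 0.16, exact permutation p = 0.1, edgeR adjusted p = 0.992). The values of neither gene overlapped between genotypes, and neither stood clear in Nsd2 Vil-KO replicate 2 as Lama5 and Itgb8 did. The pattern of Smad3, each Nsd2 Vil-KO library above each Nsd2 f/f library, was that of 5.21% of all tested genes. The share of all genes with the opposite pattern, that of Tgfbr1, is not given here. Tgfbr1 was called in each of 17 fits, which reuse the same libraries and are not independent, with log2 fold changes between −1.01 and −0.68. Smad3 was called in 14 of them, and not without Nsd2 f/f replicate 1 or Nsd2 Vil-KO replicate 1, nor with the replicate block.

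In the hemidesmosome list 0 of 3 tested genes were called (Plec, Dst and Cd151, median log2 fold change 0.14), in the basement membrane list 0 of 12 (median −0.01) and in the focal adhesion list 0 of 21 (median 0.12). Leaving out Nsd2 f/f replicate 3 gave medians of 0.32, −0.31 and 0.09, and without Nsd2 Vil-KO replicate 2 they were 0.32, −0.10 and 0.12. Ilk, the kinase-like adaptor that binds β1 tails, was listed at 0 in all 6 libraries, and 76.7% of its exon length overlaps Taf10 on the opposite strand.

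Markers of other cells were read beside these values. Injury-associated epithelial markers, led by Ly6a and Anxa1, summed to between 914.2 and 1863 CPM in Nsd2 f/f libraries, and to 1459, 3507 and 1617 CPM in Nsd2 Vil-KO libraries, so Nsd2 Vil-KO replicate 2, the library with the highest Lama5 and Itgb8, was the highest. Of 8 such markers, 0 were called. Neutrophil markers, led by S100a9 and S100a8, were also highest there, at 984.8 CPM, against between 8.48 and 598.2 CPM in the other 5. That sum was nearly all S100a8 and S100a9, at 573.9 and 404.9 CPM. In the same library Csf3r was at its lowest value, 0.666 CPM, and Cxcr2 was at 5.10 CPM, below the 12.5 CPM of Nsd2 f/f replicate 1. Mpo had at most 5 counts in any library. Of 5 neutrophil markers, 4 were tested and 0 called. Surface colonocyte markers, led by Krt20 and Car4, summed to 2395 CPM in Nsd2 Vil-KO replicate 2 and to between 2510 and 7041 CPM in the others, with 0 of 6 called. These markers did not move together. In Nsd2 Vil-KO replicate 2, Krt20, Car4, Slc26a3 and Aqp8 were at their lowest. Car1 and Guca2a, at 598.6 and 525.8 CPM there, were higher only in Nsd2 f/f replicate 3. Fibroblast markers, led by Col3a1 and Col1a2, were at 5.05 CPM in Nsd2 Vil-KO replicate 2 and between 5.82 and 262.8 CPM in the others, smooth muscle markers, led by Acta2 and Des, between 1.94 and 17.7 CPM in all, and endothelial markers, led by Vwf and Pecam1, between 5.08 and 7.46 CPM in all. Of the squamous markers, led by Dsg3 and Krt13, which would show keratinised anal epithelium, Krt5, Krt4 and Sprr3 were at 0 in all 6 libraries and the sum did not exceed 20.1 CPM, its value in Nsd2 Vil-KO replicate 2. Of the markers, Krt13 and Vwf were called higher (log2 fold changes 1.83 and 1.00) and Pecam1 lower (−1.33), all with an exact permutation p of 0.1 and none above 6.44 CPM in any library. The part of these cell types in the values of Lama5 and Itgb8 was not tested.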

How the data were processed

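Per the labels and the study's methods, RNA-seq was performed on colon IECs of DSS-treated mice, 3 libraries from Nsd2 Vil-KO and 3 from Nsd2 f/f mice. The authors isolated polyA RNA, trimmed reads, aligned them to the mouse genome (mm10/GRCm38) with HISAT2, and deposited unnormalised whole-number counts per Ensembl gene. Neither the program that counted reads nor its strand setting is given in the sources used here, so genes that overlap on opposite strands can share reads. Different library kits are named in the labels and in the methods.

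Groups and replicate numbers were taken from sample titles. Of the columns of the table, 0 were left out. Testing was done with edgeR 4.0.16 under R 4.3.3 (TMM normalisation, filterByExpr by genotype, quasi-likelihood test with robust estimation in its current form, without covariates) and Benjamini-Hochberg adjustment over 14650 genes. A gene was called if its unadjusted p was below 0.05 and its fold change above 1.2. These limits follow the screen described in the study, which does not say whether its p was adjusted, while its methods name Ballgown and an adjusted p, so counts at an adjusted p are given as well. Exact two-sided permutation tests of the difference in mean log2(CPM + 1) were added for single genes, where 3 against 3 libraries cannot give a p below 0.1. The test was tried on simulated counts first. Coordinates and exon lengths were from GENCODE vM21, which held 99.5% of the gene identifiers. A floor of 3 counts covers counting error only.

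Alternatives were scaling by library size only or by DESeq2-type size factors, no filter or at least 10 counts in each library, DESeq2 1.42.0, limma 3.58.1 (voom with quality weights), robust estimation off, a replicate block, no fold change limit, an adjusted p below 0.05, each library left out, 4 libraries without the 2 that stood apart, and the longest transcript as length. The older quasi-likelihood variant of edgeR was added after seeing the data. The genes described, the gene lists and the promoter motif were chosen with earlier results of these data known. Named were the 9 genes, their direct chain partners (Lamb1, Lamb2, Lamc1, Itgav, Itgb1), called genes of each list, Nsd2, the 5 genes most correlated with Lama5 and with Itgb8, and the 2 most abundant genes of each marker list. A further gene under this rule is not reported here. Itgb2, Adrm1, Macc1, Ilk, Xist, the tested hemidesmosome genes, squamous markers at 0 and genes called under an alternative were named after their values were seen. So were Itgb5 and the further single markers given beside the sum of their list.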

Additional observations from a re-analysis of the deposited data

How the results depend on the processing

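With 3 libraries a genotype, a fold change above 1.2 with an unadjusted p below 0.05 called 482 of all genes, and 0 at an adjusted p below 0.05. This criterion called 1646 (10.95% of those tested) in the 4 libraries left without Nsd2 f/f replicate 3 and Nsd2 Vil-KO replicate 2, and 1421 (9.70%) with limma-voom. It called 861 without a filter on low counts, 303 with the replicate block, and between 323 and 769 with each library left out. The highest of these last counts was without Nsd2 Vil-KO replicate 2. Of the 7 partners, 3 were called in the 4 libraries (Itga3, Itga6, Itgb4), 2 with limma-voom (Itga3, Itgb4), 1 without Nsd2 Vil-KO replicate 1 (Lama3, lower) and 0 under every other alternative tried, so with each library left out the count was between 0 and 1. Of the other laminin and integrin genes, 2 were called in the 4 libraries (Itgax and Itga9, lower), 4 with limma-voom (these 2 and Lamb1 lower, Itgb5 higher), 1 without a filter (Lama2, lower) and 1 with the replicate block (Itgav, higher), and between 0 and 1 with each library left out (Itgav without Nsd2 f/f replicate 1, Itgb2 without Nsd2 f/f replicate 3). Of the adhesion machinery, 14 of 49 tested were called in the 4 libraries (10 higher, 4 lower) and 11 of 47 with limma-voom (8 higher, 3 lower). The count was 5 without a filter, 1 with the replicate block (Tgfbr1) and 0 at an adjusted p below 0.05. With each library left out, between 1 and 7 were called, 7 without Nsd2 Vil-KO replicate 2 and 1 without Nsd2 Vil-KO replicate 1 or Nsd2 f/f replicate 1. The causes were not tested.

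The log2 fold change of Itgb6 changed sign, to 0.024 in the 4 libraries, 0.022 with limma-voom and 0.0027 with library size only, and lay between −0.29 and 0.26 with each library left out. Lama5 lay between 1.26 and 3.59 and Itgb8 between 0.76 and 3.52 with each library left out, both lowest without Nsd2 Vil-KO replicate 2, and limma-voom gave 1.36 and 0.59. Itgb8 was not tested with at least 10 counts in each library. Deviations from the group means of equally numbered libraries correlated at 0.32, −0.35 and −0.11. From so few libraries these values cannot decide whether equal numbers mark paired samples. The replicate block changed no call of a partner.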
